A study of Mus musculus with 48 samples.

Results

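Astrocytes are the glia that clear synaptic glutamate, supply neurons with glutamine and line vessels and synapses. The genes described here are 8 of the 757 genes on the Glial panel of nCounter, which counts single transcripts by barcoded probes without amplifying them. They were chosen by name, 5 as genes of astrocyte identity (Aldh1l1, Slc1a3, Glul, S100b and Sox9) and 3 as genes of astrocyte reactivity (Serpina3n, Stat3 and S100a10). RNA came from the cortex of 24 mice aged 7.5 months, 6 in each of 4 groups of genotype by sex, and all of them carried the 5xFAD transgenes. These are human amyloid precursor protein and presenilin 1 genes with mutations of familial Alzheimer disease, driven mainly in neurons by the Thy1 promoter, and they produce early plaques. The 12 mice labelled 5xFAD Plcg2 KO+/- were in addition heterozygous for loss of Plcg2, which encodes phospholipase C gamma 2, an enzyme found in brain chiefly in microglia and acting downstream of the receptor TREM2. The 12 mice labelled 5xFAD were the comparison group, and no mice without the transgenes were used here.

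Around amyloid plaques astrocytes become reactive, a state in which cytokine receptors signal through the transcription factor STAT3 and genes such as Serpina3n are induced. Identity genes mark the cells with or without reactivity, but none of the 8 is read from astrocytes alone. S100b and Glul are also expressed by oligodendrocyte lineage cells, S100a10 by endothelium and some neurons, and Stat3 by most cell types. In RNA from whole cortex, fewer cells of a type and less RNA per cell cannot be told apart.

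All 8 genes were measured well above the dimmest genes of the panel, with a lowest value of 66.3 normalized counts in any mouse. Total counts recovered per mouse lay between 953461 and 1239109 for 5xFAD females, all below the 1773331 to 1897264 of the Plcg2 KO+/- females. For males they overlapped, at 1428825 to 1775622 (5xFAD) and 1360757 to 1814975 (Plcg2 KO+/-). The 5xFAD mice had animal numbers between 1177 and 1270 and the Plcg2 KO+/- mice between 3 and 51, without overlap. The labels name no cohort or assay run, and whatever goes with these numbers cannot be told apart from genotype. Mouse M 3 and mouse F 12, both Plcg2 KO+/-, stood apart from their groups, with a median absolute deviation over all genes of 0.255 and 0.175 on the log2 scale against at most 0.153 in any other mouse. Plcg2 itself was not analysed here, so the genotype labels could not be checked against the targeted gene.

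Sequence was looked at for 6 of the 8 genes, those with an entry in the RefSeq promoter table of mouse build GRCm38.p6, which runs from 250 bases before to 50 bases after the start of transcription. Aldh1l1 and Slc1a3 are shown because their values varied most closely together from mouse to mouse, and Serpina3n because it is a known acute phase gene downstream of STAT3. The Aldh1l1 window lies at chr6:90550543-90550842 on the plus strand, the Slc1a3 window at chr15:8710758-8711057 on the minus strand and the Serpina3n window at chr12:104406458-104406757 on the plus strand. Capitals mark a match to the STAT palindrome TTCNNNGAA, searched on both strands.
Aldh1l1: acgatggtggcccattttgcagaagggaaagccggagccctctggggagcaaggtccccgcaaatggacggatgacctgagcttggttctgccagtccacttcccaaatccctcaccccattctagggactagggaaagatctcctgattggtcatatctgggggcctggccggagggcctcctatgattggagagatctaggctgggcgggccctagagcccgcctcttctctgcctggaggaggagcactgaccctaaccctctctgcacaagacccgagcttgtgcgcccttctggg
Slc1a3: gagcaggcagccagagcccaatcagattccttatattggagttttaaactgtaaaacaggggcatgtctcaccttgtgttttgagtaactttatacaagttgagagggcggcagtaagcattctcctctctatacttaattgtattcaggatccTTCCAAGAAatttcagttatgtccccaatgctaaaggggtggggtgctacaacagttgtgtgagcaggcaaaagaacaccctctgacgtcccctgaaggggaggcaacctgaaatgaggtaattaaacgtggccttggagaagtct
Serpina3n: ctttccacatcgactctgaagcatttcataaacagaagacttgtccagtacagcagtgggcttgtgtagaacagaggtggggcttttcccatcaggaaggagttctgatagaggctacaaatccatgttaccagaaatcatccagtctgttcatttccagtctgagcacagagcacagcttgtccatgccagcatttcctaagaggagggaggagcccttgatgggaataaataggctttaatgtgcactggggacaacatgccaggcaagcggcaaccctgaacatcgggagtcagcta
The only match was TTCCAAGAA at position -96 of Slc1a3. The palindrome stood in 1 of the 6 windows and in 8.30% of all 32851 promoters of the table. The CCAAT box, a common element of promoters that reads CCAAT on either strand, stood in 5 of the 6, all except Serpina3n, and in 37.4% of all promoters. A match describes letters in this window and no more.

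The main question was how the astrocyte genes differed between Plcg2 KO+/- and 5xFAD cortex. In females the glutamate handling genes, Aldh1l1, Sox9 and Stat3 were higher in Plcg2 KO+/- mice and the pair of S100 genes was lower. In males S100b, S100a10 and Sox9 were lower and Serpina3n was higher. S100b and S100a10 were thus lower in both sexes. Sox9 differed in opposite directions on the Glial panel, but was lower in both sexes on the Neuropathology panel. With log2 total count as a covariate, S100a10 was the only gene of the 8 still called in females on the Glial panel. Sox9 was then -0.19 and not called. Differences below are Plcg2 KO+/- minus 5xFAD on the log2 scale of normalized counts, with the standard error, and adjusted p-values come from limma, Benjamini-Hochberg adjusted across the whole panel. A gene is called at an adjusted p under 0.05.

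In females 5 of the 8 genes were called higher and 2 lower, on a panel where 54.8% of all genes were called in this comparison. The background was 34.5% called higher and 20.3% called lower, and the median difference of the 8 genes was 0.35 against 0.08 over all genes. In males 1 was called higher and 3 lower, against 40.7% of all genes called (17.2% higher and 23.5% lower), with a median of 0.03 against 0.00. Without mouse M 3, 199 genes of the panel were called higher in males in place of 130. Averaged over the sexes 5 were called higher and 2 lower, against 60.5% of all genes. The female values of Plcg2 KO+/- and 5xFAD mice did not overlap for 5 of the 8 genes, and those of males for 1, while over all genes this was so for 26.6% in females and 9.11% in males.

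**Figure D1:**
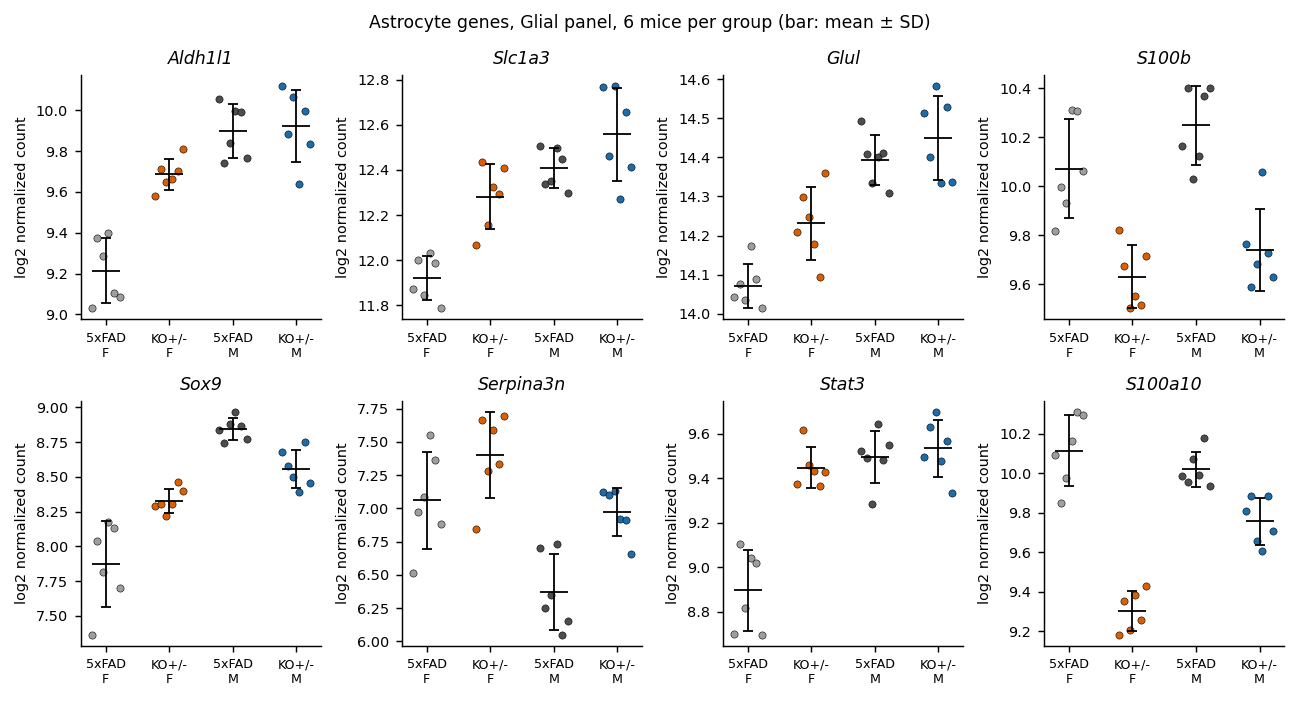
Log2 normalized counts of the 8 genes on the Glial panel, one point per mouse and 6 mice per group, with bars for the mean and SD; the vertical axes differ between genes. S100a10 in Plcg2 KO+/- females lies between 9.18 and 9.43, below every other mouse, and Serpina3n is lowest in 5xFAD males.

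Slc1a3 encodes GLAST, an astrocytic transporter that takes glutamate up from the synapse. In females its values ran from 11.79 (median 11.93) to 12.03 in 5xFAD and from 12.07 (median 12.31) to 12.44 in Plcg2 KO+/- mice. The male values were 12.30 to 12.51 (median 12.40) in 5xFAD and 12.27 to 12.77 (median 12.56) in Plcg2 KO+/- mice. Every Plcg2 KO+/- female lay above every 5xFAD female, whereas the males overlapped. The difference was 0.36 ± 0.082 in females (limma adjusted p = 0.000787), a ratio of 1.28, and 0.15 ± 0.082 in males (adjusted p = 0.138). The male difference passed the test without mouse M 3 (0.21, adjusted p = 0.0280) and with each mouse centred on its median (0.19, adjusted p = 0.0409). The female and male differences were not shown to differ (interaction 0.21, adjusted p = 0.202).

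Glul encodes glutamine synthetase, which turns the glutamate taken up into glutamine. Its level was 14.01 to 14.17 (median 14.06) in females of the 5xFAD group and 14.09 to 14.36 (median 14.23) in Plcg2 KO+/- females. Among males it was 14.31 to 14.49 (median 14.41) in 5xFAD and 14.33 to 14.58 (median 14.46) in Plcg2 KO+/- mice. The groups overlapped in both sexes. Glul rose by 0.16 ± 0.052 in Plcg2 KO+/- females (adjusted p = 0.0129), the smallest called difference among the 8 genes, and differed by 0.06 ± 0.052 in males (adjusted p = 0.390). With median centring the female value was 0.10 and did not pass (adjusted p = 0.0698).

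Aldh1l1 encodes a folate-metabolizing dehydrogenase that is widely used to label astrocytes. Aldh1l1 in females ranged from 9.03 (median 9.20) to 9.40 in 5xFAD and from 9.58 (median 9.68) to 9.81 in Plcg2 KO+/- mice. In males it ranged from 9.74 (median 9.92) to 10.06 in 5xFAD and from 9.64 (median 9.94) to 10.12 in Plcg2 KO+/- mice. The female groups were separate and the male groups covered nearly the same range. Aldh1l1 rose by 0.47 ± 0.0815 in Plcg2 KO+/- females (adjusted p = 5.38e-05), a ratio of 1.39, and the male difference was 0.02 ± 0.0815 (adjusted p = 0.830, 95% interval -0.14 to 0.19). The 2 differences differed from each other (interaction 0.45 ± 0.12, adjusted p = 0.00741).

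Sox9 encodes the transcription factor that specifies glial fate and stays on in adult astrocytes. In females its values ran from 7.36 (median 7.93) to 8.18 in 5xFAD and from 8.22 (median 8.30) to 8.46 in Plcg2 KO+/- mice. In males they ran from 8.75 (median 8.85) to 8.97 in 5xFAD and from 8.39 (median 8.54) to 8.75 in Plcg2 KO+/- mice. All 6 Plcg2 KO+/- females lay above the highest 5xFAD female, and the highest Plcg2 KO+/- male lay at the level of the lowest 5xFAD male. Sox9 rose by 0.46 ± 0.10 in females (adjusted p = 0.000624) and fell by 0.28 ± 0.10 in males (adjusted p = 0.0291), and the average over the sexes did not pass (0.09 ± 0.071, adjusted p = 0.310). The interaction was 0.74 ± 0.14 (adjusted p = 0.00086), the largest of the 8 genes, where 21.9% of all genes were called. The male call was lost without mouse M 1268 (adjusted p = 0.0577), M 13 (adjusted p = 0.0559) or M 48 (adjusted p = 0.0551), and without F 12 and M 3 together (-0.25, adjusted p = 0.0542).

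S100b encodes a calcium-binding protein that astrocytes also release. In females its values ran from 9.82 (median 10.03) to 10.31 in 5xFAD and from 9.50 (median 9.61) to 9.82 in Plcg2 KO+/- mice. In males they ran from 10.03 (median 10.26) to 10.40 in 5xFAD and from 9.59 (median 9.70) to 10.06 in Plcg2 KO+/- mice. The groups met only at their ends, in females through mouse F 12 and in males through mouse M 3. S100b fell by 0.44 ± 0.094 in females (adjusted p = 0.000466) and by 0.51 ± 0.094 in males (adjusted p = 0.00048), ratios of 0.737 and 0.704. All 12 Plcg2 KO+/- mice lay below the 5xFAD mean of their own sex, and the interaction did not pass (0.07, adjusted p = 0.753).

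Among the reactivity genes, Stat3 encodes the transcription factor that carries signals of interleukin 6 type cytokines to the nucleus. Stat3 in females ranged from 8.70 (median 8.92) to 9.11 in 5xFAD and from 9.36 (median 9.43) to 9.62 in Plcg2 KO+/- mice. The males ranged from 9.29 (median 9.51) to 9.64 in 5xFAD and from 9.33 (median 9.53) to 9.70 in Plcg2 KO+/- mice. The female groups were separate and the male groups overlapped over most of their range. Stat3 rose by 0.55 ± 0.078 in females (adjusted p = 4.5e-06), a ratio of 1.46, and the male difference was 0.04 ± 0.078 (adjusted p = 0.712, 95% interval -0.12 to 0.20). The interaction was 0.51 ± 0.11 (adjusted p = 0.00211).

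Serpina3n encodes a secreted serine protease inhibitor that reactive astrocytes make strongly. Its female values lay from 6.52 (median 7.03) to 7.55 in 5xFAD and from 6.84 (median 7.46) to 7.69 in Plcg2 KO+/- mice. Male values lay from 6.05 (median 6.30) to 6.73 in 5xFAD and from 6.66 (median 7.01) to 7.13 in Plcg2 KO+/- mice. Female groups overlapped widely, and in males 1 Plcg2 KO+/- mouse lay inside the 5xFAD range. Serpina3n rose by 0.60 ± 0.16 in males (adjusted p = 0.00679), a ratio of 1.52, and the female difference was 0.34 ± 0.16 (adjusted p = 0.0840). The female difference passed without 5xFAD mouse F 1248 (0.44, adjusted p = 0.0267) or without F 12 (0.45, adjusted p = 0.0178), and with voom on recovered counts (0.36, adjusted p = 0.0302). The interaction did not pass (-0.26, adjusted p = 0.445), so a larger difference in males was not shown.

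S100a10 encodes p11, the partner of annexin A2, and is often listed among genes of astrocytes that react to ischemia. Female values ranged from 9.85 (median 10.13) to 10.31 in 5xFAD and from 9.18 (median 9.30) to 9.43 in Plcg2 KO+/- mice. The range in males was from 9.94 (median 9.99) to 10.18 in 5xFAD and from 9.60 (median 9.76) to 9.88 in Plcg2 KO+/- mice. It was the one gene of the 8 whose groups did not overlap in either sex. S100a10 fell by 0.81 ± 0.074 in females (adjusted p = 5.23e-08), a ratio of 0.570, and by 0.26 ± 0.074 in males (adjusted p = 0.0085), a ratio of 0.834. The difference was larger in females (interaction -0.55 ± 0.10, adjusted p = 0.000793).

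**Figure D2:**
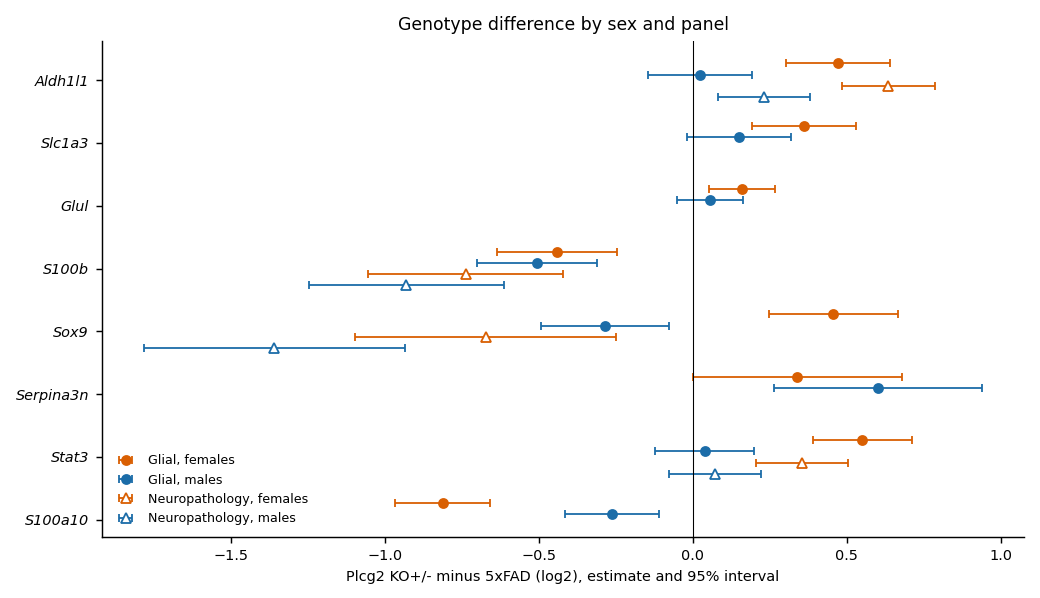
Difference of Plcg2 KO+/- minus 5xFAD mice (log2) for each gene, in females and males on the Glial panel (filled circles) and, for 4 genes, on the Neuropathology panel (open triangles), with 95% intervals of the fit. S100b is below 0 in all 4 estimates, and Sox9 is above 0 in Glial females (0.46) and below 0 in the other 3 estimates.

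Depth differed between the genotypes in females, so the values were set against the recovered total count of each mouse. Within groups Aldh1l1, Slc1a3, Sox9 and Serpina3n were higher in mice with higher totals, by 0.93, 0.80, 0.91 and 1.53 log2 units per doubling, and the slope of S100b was -0.30. With the log2 total as a covariate 13.5% of all genes were called in females, and S100a10 was the only call left among the 8 genes (-1.0 ± 0.20, adjusted p = 0.0040). The other female estimates were then -0.19 for Aldh1l1, -0.21 for Slc1a3, -0.13 for Glul, -0.19 for Sox9, -0.75 for Serpina3n, -0.23 for S100b and 0.33 for Stat3, none past the test. In males, whose totals overlapped, the same 4 genes were called with the covariate as without it, Serpina3n (0.60), S100b (-0.51), Sox9 (-0.29) and S100a10 (-0.26), where 44.8% of all genes were called. The interactions of Aldh1l1 (-0.21), Sox9 (0.10) and Stat3 (0.29) no longer passed with it, where 23.9% of all genes were called, that of S100a10 did (-0.74, adjusted p = 0.0135), and that of Serpina3n came to pass (-1.34, adjusted p = 0.0164). In females depth and genotype cannot be told apart.

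**Figure D3:**
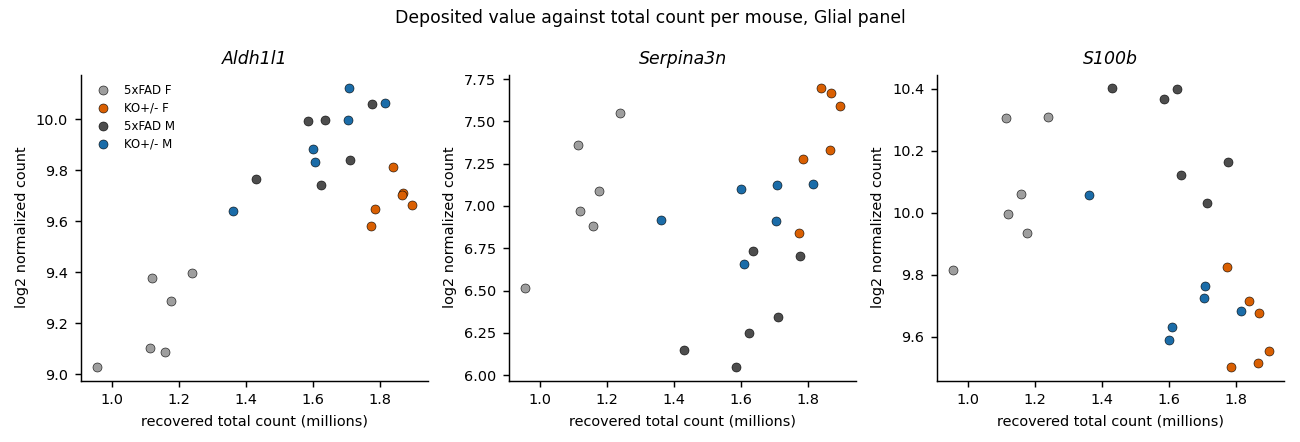
Log2 normalized count of Aldh1l1, Serpina3n and S100b on the Glial panel against the recovered total count per mouse in units of 1e6 counts, one point per mouse, coloured by group. Female genotypes lie apart on the horizontal axis, with 5xFAD totals up to 1239109 and Plcg2 KO+/- totals from 1773331, while male totals overlap and S100b still separates the male genotypes except for 1 mouse.

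Ratios between genes of the same mouse do not depend on how that mouse was scaled and are given as a description. They can still vary with depth, since the slopes on log2 total count differed between genes (0.80 for Slc1a3 and -0.30 for S100b). In females depth and genotype thus cannot be told apart in these ratios either. The log2 ratio of Slc1a3 to S100b was 1.68 to 2.06 in 5xFAD females, below the 2.25 to 2.78 of Plcg2 KO+/- females. In males it was 1.90 to 2.38 in 5xFAD and 2.22 to 3.09 in Plcg2 KO+/- mice. This ratio was thus higher in Plcg2 KO+/- females without overlap and overlapped in males. The ratio of Aldh1l1 to Sox9 differed by 0.02 in females, with overlap, and by 0.31 in males, without overlap. The log2 ratio of Serpina3n to S100a10 ran from -3.57 to -2.61 in 5xFAD and from -2.34 to -1.68 in Plcg2 KO+/- females. In males it ran from -4.13 to -3.26 and from -3.05 to -2.53, so the genotypes were separate in both sexes. S100a10 alone did not overlap in either sex, and the pairs were chosen with results known. The separation of this ratio thus adds no support beyond S100a10 itself. For none of these ratios is the share of other pairs without overlap given. The ratio of Stat3 to S100a10 differed by 1.36 in females, without overlap, and by 0.30 in males, with overlap.

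The sexes were compared within each genotype. The deposited values differ in scale between the sexes. The median female minus male difference over all genes was -0.31 in 5xFAD and -0.24 in Plcg2 KO+/- mice on the log2 scale. Each difference is therefore also given after centring each mouse on its median. Total counts were 953461 to 1239109 in 5xFAD females and 1428825 to 1775622 in 5xFAD males, without overlap. Depth and sex thus cannot be told apart in 5xFAD mice on either scale. In Plcg2 KO+/- mice the totals overlapped at their ends, at 1773331 to 1897264 in females and 1360757 to 1814975 in males. Differences are female minus male. Serpina3n was higher in females by 0.69 ± 0.16 in 5xFAD mice (adjusted p = 0.000872), and by 0.96 after centring. In Plcg2 KO+/- mice the values were 0.43 ± 0.16 (adjusted p = 0.0286) and 0.60. The deposited difference in Plcg2 KO+/- mice lost its call without F 8, F 14, F 19, M 46 or M 48 (range over all 24 mice left out in turn 0.36 to 0.54, highest adjusted p = 0.0693). Serpina3n was the one gene of the 8 called higher in females on the deposited scale. There 66.3% of all genes were called in either direction in 5xFAD and 61.8% in Plcg2 KO+/- mice. Few of these calls were higher in females. With each of the 24 mice left out in turn they numbered 26 to 38 genes in 5xFAD and 22 to 37 in Plcg2 KO+/- mice.

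Sox9 was lower in 5xFAD females than in 5xFAD males by 0.97 ± 0.10 (adjusted p = 4.1e-08). Centring left a difference of -0.70 (adjusted p = 1.96e-06). In Plcg2 KO+/- mice the difference was -0.23 ± 0.10 (adjusted p = 0.0519) and -0.06 after centring. It passed without 5xFAD mouse F 1180, F 1248 or F 1249, or Plcg2 KO+/- mouse F 51, M 3 or M 48 (lowest adjusted p = 0.0134). Aldh1l1, Stat3 and Slc1a3 had the same order in 5xFAD mice, with centred differences of -0.42, -0.33 and -0.22, all called. In Plcg2 KO+/- mice their centred differences were -0.07, 0.08 and -0.11, none of them called. After centring, 48.5% of all genes were called between the sexes in 5xFAD and 12.5% in Plcg2 KO+/- mice. The totals of the sexes overlapped in Plcg2 KO+/- but not in 5xFAD mice. The part of depth in this contrast between the genotypes was not tested.

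S100a10 was higher in 5xFAD females than in males after centring (0.36, adjusted p = 0.000711) and lower in Plcg2 KO+/- females (-0.29, adjusted p = 0.0196). On the deposited scale the values were 0.09 (adjusted p = 0.265) and -0.46 (adjusted p = 7.5e-05). S100b was not called between the sexes in 5xFAD or Plcg2 KO+/- mice, on the deposited scale (-0.18 and -0.11) or after centring, where the sign turned (0.09 and 0.06). Glul was lower in females on the deposited scale (-0.32 and -0.22), and its centred differences of -0.05 in each genotype were not called. By centred mean, 5xFAD females were the lowest of the 4 groups in Slc1a3, Glul, Aldh1l1, Sox9 and Stat3 and the highest in S100b and S100a10. The other 3 groups overlapped their neighbours in that order for Slc1a3, Aldh1l1, Sox9 and Stat3. The 5xFAD females were also the group with the lowest total counts, and the part of depth in this order was not tested.

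The same 24 animal numbers were also run on the Neuropathology panel of 760 genes, which shares 4 of the genes, so this repeats the measurement and not the animals. Aldh1l1 was higher in Plcg2 KO+/- mice there in females (0.64 ± 0.072, limma adjusted p = 5.77e-07 over the 760 genes) and in males (0.23 ± 0.072, adjusted p = 0.00967). S100b fell by 0.74 ± 0.15 in females (adjusted p = 0.000416) and by 0.93 ± 0.15 in males (adjusted p = 6.96e-05). Stat3 rose by 0.35 ± 0.072 in females (adjusted p = 0.000326) and differed by 0.07 ± 0.072 in males (adjusted p = 0.402). With median centring the male differences were 0.45 for Aldh1l1 and 0.30 for Stat3, which then passed (adjusted p = 0.0109). All 4 genes were called in females and 3 in males, where 54.2% and 56.7% of all genes were called. Groups did not overlap for 3 of the 4 genes in females and for Sox9 in males, against 22.8% and 13.9% of all genes. The interaction passed for Aldh1l1 (0.40, adjusted p = 0.00904), where 19.1% of all genes were called, and did not after median centring (0.12). Total counts on this panel were 528033 to 651615 in 5xFAD and 1220459 to 1603006 in Plcg2 KO+/- females, without overlap, so depth and genotype cannot be told apart there, and they overlapped in males. With log2 total as a covariate Aldh1l1 passed at 0.76 in females and 0.26 in males, S100b at -1.94 and -1.17, and Stat3 at 0.66 in females. Sox9 also passed in both sexes. The share of all genes called in this fit is not given here. With the same covariate on the Glial panel none of these 4 genes was called in females, and the estimate of Aldh1l1 was negative.

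Sox9 differed between the panels. On the Neuropathology panel its female values were 8.19 to 8.65 (median 8.46) in 5xFAD and 7.46 to 8.56 (median 7.65) in Plcg2 KO+/- mice. In males they ran from 9.30 (median 9.38) to 9.46 in 5xFAD and from 7.49 (median 7.94) to 9.14 in Plcg2 KO+/- mice. The males were separate, and the females overlapped through mouse F 12. Sox9 fell by 0.67 ± 0.20 in females (adjusted p = 0.00894) and by 1.36 ± 0.20 in males (adjusted p = 2.73e-05), whereas on the Glial panel it rose in females. Without F 12 and M 3 the Neuropathology differences were -0.83 and -1.58.

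**Figure D4:**
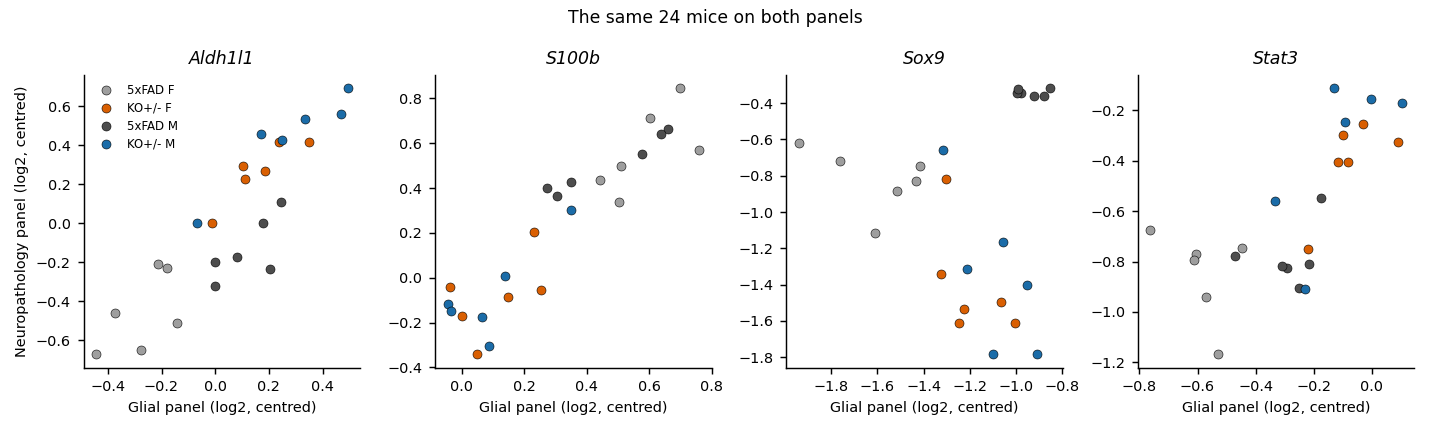
Values of the 4 genes in the same 24 mice on the Glial panel (horizontal) and the Neuropathology panel (vertical), both in log2 units centred on each mouse's median over the 251 shared genes, one point per mouse. For Aldh1l1 and S100b the mean genotype difference keeps its sign in each sex between panels, and for Sox9 in females it does not. For Sox9 most Plcg2 KO+/- mice lie low on the Neuropathology panel and in the middle or high on the Glial panel.

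The difference between the panels was fitted within mice over the 251 shared genes, each panel centred on their median. The genotype difference of Sox9 was lower on the Neuropathology panel by 0.93 ± 0.14 over both sexes (adjusted p = 2.04e-05), by 1.0 in females and by 0.86 in males. Without F 12 and M 3 it was -1.09. The difference of Aldh1l1 was 0.36 ± 0.048 higher on the Neuropathology panel (adjusted p = 5.15e-06), that of S100b 0.19 ± 0.053 lower (adjusted p = 0.00437) and that of Stat3 was not called (0.09, adjusted p = 0.309), but was without F 12 and M 3 (0.16, adjusted p = 0.0416). Over the shared genes 60.2% were called in this comparison, so a difference between panels was common. Of 119 shared genes called in both panels for genotype averaged over the sexes, 12 had opposite signs. Sox9 was not among these, since its Glial difference did not pass (limma adjusted p = 0.0574). In females 4 of 79 such genes had opposite signs, Sox9 among them. The cause of the difference in Sox9 was not tested, and its direction in females rests on the panel used.

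Other genes of the same pathways were counted from lists by role. For all lists below, depth and genotype cannot be told apart in the female counts, and the counts over both sexes include the females. Of 10 measured genes of interleukin 6 type cytokine and STAT signalling, 7 were higher and 1 lower in Plcg2 KO+/- mice over both sexes, with a median of 0.23 against 0.04 over all genes, where 33.8% of all genes were called higher and 26.7% lower. Egfr, a growth factor receptor of reactive astrocytes, rose by 0.52 ± 0.081, the kinase gene Jak1 by 0.28 ± 0.051, its relative Jak2 by 0.23 ± 0.049 and the phosphatase gene Ptpn11 by 0.27 ± 0.041. In females 7 of the 10 were called, all higher, against 34.5% of all genes, and in males 3, all higher, against 17.2%. Ptpn11 differed by 0.52 in females and 0.01 in males, and Jak1 by 0.30 and 0.26. On the Neuropathology panel 7 genes of this list were measured. Over both sexes 3 were higher and 1 lower, against 35.5% and 36.1% of all genes. In males 1 was higher and 1 lower, where 56.7% of all genes were called in either direction.

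Of 11 measured genes of the A1 set, induced in astrocytes by inflammatory stimuli in mice, 1 was higher (Amigo2, a cell adhesion gene, 0.24 ± 0.096) and 4 were lower. H2-T23, a class I gene, fell by 0.41 ± 0.072, the immunoproteasome gene Psmb8 by 0.25 ± 0.094 and the proteoglycan gene Srgn by 0.16 ± 0.062. Of 11 genes of the A2 set, induced by ischemia, 3 were higher and none lower, namely Ptgs2, encoding cyclooxygenase 2 (0.42 ± 0.085), the transporter gene Slc10a6 (1.16 ± 0.32) and the transglutaminase gene Tgm1 (0.86 ± 0.30). The latter pair was dim, with means under 20 normalized counts. The list medians were 0.00 and 0.16. Against 33.8% of all genes called higher and 26.7% lower, the 3 of 11 genes of the A2 set lay below the share of higher calls. Of 2 measured pan-reactive genes Vim, encoding the intermediate filament vimentin, fell by 0.22 ± 0.071 and the other was not called. On the Neuropathology panel 6 pan-reactive genes were measured, of which 2 were higher and none lower, with a median of 0.13, where 35.5% of all genes were called higher and 36.1% lower.

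Of 2 further identity genes measured, Entpd2, an ectonucleotidase, rose by 0.46 ± 0.11 over both sexes, by 0.89 in females (adjusted p = 5.82e-05) with a difference of 0.03 in males. The other was not called, where 33.8% of all genes were called higher over both sexes and 26.7% lower. On the Neuropathology panel 4 further identity genes were measured, of which 2 were higher and none lower over both sexes, against 35.5% of all genes higher. None of them was called in males, where 56.7% of all genes were. Of 5 Glial panel genes of glutamate and glutamine handling 1 was called, the glutamine transporter gene Slc38a1 (0.27 ± 0.060), against 60.5% of all genes. Of 4 transcription factor genes of glial fate, Sox10 (0.36 ± 0.060) and Olig2 (0.24 ± 0.10), both of the oligodendrocyte lineage, were higher and Sox2, of progenitors and astrocytes, was lower (-0.14 ± 0.053). No other S100 or annexin gene of the list was among the 757.

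Markers of other cell types moved as well, and their part in the astrocyte results was not tested. Of 7 neuronal markers 5 were higher and none lower over both sexes, against 33.8% of all genes called higher. In females all 7 were higher, against 34.5% of all genes called higher. In males 4 were higher and 1 lower, against 17.2% and 23.5% of all genes. Their summed normalized counts ran from 45377.6 to 54740.6 in 5xFAD and from 55796.1 to 66354.7 in Plcg2 KO+/- females, without overlap. In males the sums overlapped, from 67351.8 to 71063.6 and from 65847.0 to 84810.0. Of 5 endothelial markers 3 were lower over both sexes, against 26.7% of all genes. In males all 5 were lower, against 23.5%, with sums of 983.4 to 1227.6 in 5xFAD and 634.8 to 869.9 in Plcg2 KO+/- mice. In females 2 were higher and 1 lower, against 34.5% and 20.3% of all genes. The female sums overlapped, from 540.0 to 786.3 and from 530.0 to 772.9. Of 6 oligodendrocyte markers Mbp, of myelin, fell by 0.40 ± 0.060 and the lineage factor Myrf rose by 0.23 ± 0.063, and the sums overlapped in both sexes. Of 8 microglial markers 2 were higher and 2 lower, and the sums overlapped in both sexes, with no defining marker of any type at 0 counts.

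The 8 genes were compared across mice by their deviations from the group means, which share each mouse's scaling and depth. Of 28 pairs 25 correlated positively and 12 passed a permutation test within groups after Benjamini-Hochberg adjustment over the pairs, all of them positive. The closest pair was Aldh1l1 and Slc1a3, with Pearson's r of 0.81 (adjusted permutation p = 0.00028) and Spearman's rho of 0.77 over 24 mice. Without the 2 mice farthest from the median of Aldh1l1, r was 0.73. Slc1a3 and Glul followed with r of 0.75 and rho of 0.79, and Slc1a3 and Serpina3n had r of 0.62 and rho of 0.65. S100b and S100a10 correlated with none of the other genes past the test, with r between -0.18 and 0.29 for S100b and between -0.10 and 0.28 for S100a10. The deviations of Aldh1l1 had r of 0.73 with log2 total count, those of S100b -0.20 and those of S100a10 0.23.

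**Figure D5:**
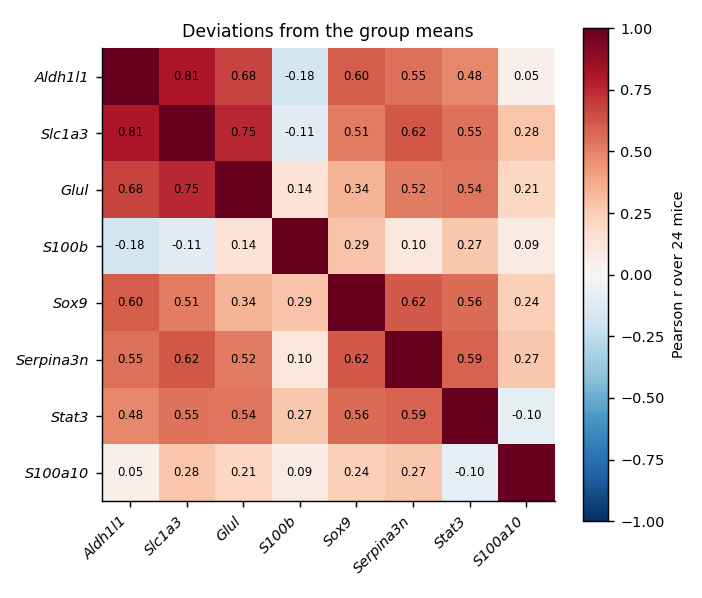
Pearson's r between the deviations of the 8 genes from their group means over 24 mice on the Glial panel, from blue (-1) to red (1). Slc1a3, Aldh1l1 and Glul form the darkest block (0.68 to 0.81), and the lines of S100b and S100a10 stay between -0.18 and 0.29.

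Among the 749 other genes of the panel, up to 2 whose deviations were most like each gene are given by Pearson's r over the 24 mice. For Slc1a3 these were Lgmn (0.86) and Acly (0.85), for Glul Mertk (0.87) and Lgmn (0.72), and for Aldh1l1 Por (0.83) and App (0.81). For Sox9 they were Gmpr2 (0.87) and Reep5 (0.82), and for S100b Ahcyl1 (0.87) and Atg12 (0.87). For Stat3 they were Cacna1e (0.74) and Sybu (0.72), for Serpina3n the shared probe of the complement genes C4a/b (0.75), and for S100a10 Tmsb4x (0.82) and the dim gene Tcl1 (0.76). The median r with all other genes lay between 0.11 for S100b and 0.22 for Serpina3n. C4a/b was higher in Plcg2 KO+/- mice of both sexes (0.72 in females and 1.03 in males), and Tmsb4x, like S100a10, was lower in both (-0.95 and -0.62).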

How the data were processed

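RNA from the cortex of 24 mice was measured on the Glial and the Neuropathology panel, giving 48 samples; genotype, sex and animal number were taken from the titles and sex labels. The authors deposited log2 normalized values, per the values themselves, and how they were normalized is not given in the sources used here. The description label of the Glial samples names the Neuropathology panel, and the title was followed. Whole counts were recovered from the values of each mouse (100.0% of values whole within 0.05), and their sums are the totals given. Replicate pairs of a group differed by more than counting noise, so no mouse was counted as a duplicate. Nothing states that samples of a group share a litter or a run.

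For each panel a limma model of the 4 group means took the log2 values as deposited (limma 3.58.1, R 4.3.3), and 7 contrasts were adjusted by Benjamini-Hochberg over all genes of the panel. Correlations used 100000 permutations of mice within groups (numpy 2.4.6, scipy 1.17.1), where the smallest p is 1e-05. In data simulated for the genotype difference averaged over the sexes, with 757 genes, 71.6% of genes changed by 0.25, 97.0% by 0.5 and 98.5% by 1 on the log2 scale were recovered, and 4.81% of 187 calls were false.

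The fits were repeated with quantile normalization, with median centring, without genes of a mean under 20 normalized counts (dim genes), with a trended robust variance, array weights, no sex term, log2 total count as a covariate, limma voom on recovered counts scaled to their totals, each sex alone, and leaving out mice. The comparison of the panels was added after the data were seen. The members, lists and tests were chosen with earlier results of these data known. Named genes were the 8 members, the 2 most correlated genes per member and, from each list, at most 4 called genes with the lowest p. Some genes that these rules and lists take are not reported here.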

Additional observations from a re-analysis of the deposited data

Results flagged for a closer look

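The female and male genotype differences differed by the interaction test for 4 of the 8 genes on the Glial panel, where 21.9% of all genes were called. Female minus male, the values were 0.45 for Aldh1l1, 0.74 for Sox9, 0.51 for Stat3 and -0.55 for S100a10. On the Neuropathology panel the same test was passed by Aldh1l1, with 0.40, where 19.1% of all genes were called, and not after median centring (0.12, adjusted p = 0.588). The female totals were separate between the genotypes and the male totals overlapped on the Glial panel, and the part of depth in these interactions beyond the covariate fit was not tested.

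Single mice lay far from the other 5 of their group in 4 of 48 combinations of gene, panel and group, and chance gives about 1 in 20. All were on the Neuropathology panel. S100b was 10.10 in Plcg2 KO+/- mouse M 3 and at most 9.25 in the other males of its group. Sox9 was 8.56 in Plcg2 KO+/- mouse F 12 against at most 7.76 in the other females of its group, and 9.14 in M 3 against at most 8.09 in the other males. Stat3 was 9.14 in 5xFAD mouse M 1268 and at most 8.95 in the others.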

How the results depend on the processing

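S100a10 and S100b stayed lower in Plcg2 KO+/- mice of both sexes in direction under each alternative run, although S100a10 in males did not pass with quantile normalization (-0.17, adjusted p = 0.0575) and S100b in females with the depth covariate (-0.23). With log2 total count as a covariate, genes called for genotype were 116 over both sexes and 102 in females, with 0 of the 8 genes higher and 1 lower in each. Over both sexes Aldh1l1 was -0.084, Slc1a3 -0.029, Glul -0.035, Sox9 -0.24 and Serpina3n -0.074. In females Aldh1l1 was -0.19, Slc1a3 -0.21, Glul -0.13, Sox9 -0.19 and Serpina3n -0.75. The interaction was then -0.21 for Aldh1l1, -0.36 for Slc1a3 and -0.18 for Glul, with 0 of the 8 higher and 2 lower. On the Neuropathology panel it was -0.77 for S100b and -0.50 for Sox9, with 40 genes called and 0 of the 4 higher. Between the sexes 244 genes were called in 5xFAD mice, with 2 of the 8 lower, and in Plcg2 KO+/- mice 0 of the 8 were higher. The cause was not tested.

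With median centring, quantile normalization, voom, array weights or without F 12 and M 3, 2 of the 8 genes were higher in males in place of 1. With median centring, quantile normalization or voom 2 of the 4 were higher in males on the Neuropathology panel. The shares of all genes called higher in these runs are not given here, so these male counts have no background beside them. For S100b the interaction was -0.032 with centring and -0.0064 with quantile normalization. With centring, quantile normalization and voom in turn, the sex difference over both genotypes was 0.075, 0.085 and 0.11 for S100b and 0.038, 0.025 and 0.069 for S100a10, with 315, 293 and 326 genes called, and 3 of the 8 lower with voom. In 5xFAD mice S100b was 0.091, 0.089 and 0.076, and 2 of the 8 were higher. In Plcg2 KO+/- mice S100b was 0.059, 0.082 and 0.14 and Stat3 0.083, 0.084 and 0.16. Glul was 0.054 with quantile normalization and 0.032 with voom, and with voom Aldh1l1 was 0.012 and Sox9 0.019. These came with 95, 69 and 92 genes called and 1 of the 8 lower. These scalings remove the difference in scale between the sexes.

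The Neuropathology interaction was -0.096 for S100b and -0.0064 for Stat3 with centring, and -0.084 for S100b with quantile normalization, where 90 genes were called, and 95 genes were called with voom. Of the 4 genes 0 were higher with centring, quantile normalization or voom, 2 without dim genes, and 3 with array weights (363 genes) or without F 12 and M 3 (311 genes). On the Glial panel array weights gave 256 genes. Without a sex term 3 of the 8 genes were higher over both sexes, and on the Neuropathology panel 1 of the 4, with 332 genes called in either direction. Apart from the runs leaving out 1 mouse, this section gives no share of all genes called in one direction. Its counts of the 8 or the 4 genes higher or lower thus have no such background beside them. With no centring the panel difference of Stat3 was -0.081.

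Leaving out 1 mouse at a time gave 1 to 2 of the 8 genes higher in males, against 88 to 199 of the 757 genes. Aldh1l1 then ran from -0.015 to 0.081 and Stat3 from -0.0026 to 0.080, neither called. It gave 0 to 1 higher in females than in males among Plcg2 KO+/- mice, against 22 to 37 of the 757 genes. For the Neuropathology interaction it gave 1 to 3 of the 4 higher, against 96 to 283 of the 760 genes (111 to 321 in either direction). The panel difference of Stat3 in females ran from -0.14 to 0.0016.

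No paired analysis was possible because the genotype groups share no animal numbers. Precision is limited by 6 mice a group, and depth and genotype cannot be told apart in females, where the totals did not overlap.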
